A study of Mus musculus with 10 samples.

Results

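The 49 genes described here encode the DNA replication and S phase machinery of the cell: the proteins that license and fire origins, copy DNA, supply nucleotides, repair and repackage the copied DNA, and switch the programme on. They were taken as a list of names and are 49 of 53465 genes counted in 10 RNA-seq libraries of mouse CD8 T cells. All 49 passed the filter on low counts and were among 13182 genes tested. The cells were C57BL/6 T cells of OT-I mice, whose transgenic T cell receptor recognises an ovalbumin peptide, taken from spleen and peripheral lymph nodes. They were activated with that peptide and interleukin-2 in 25 mM glucose for 3 days, then moved to 1 mM glucose.

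4 groups were compared. The group d9 with acetate (n = 3) spent 120 h in 1 mM glucose, the last day with 5 mM sodium acetate, and the group d9 without acetate (n = 3) spent the same 120 h with none. The group d5 with acetate (n = 2) spent 24 h in 1 mM glucose, all of it with 5 mM acetate, and the group d5 without acetate (n = 2) spent those 24 h with none. Every group carried the OT-I receptor, grew in interleukin-2, and was restimulated for 4 h with phorbol ester (PMA) and ionomycin before polyadenylated RNA was taken, so the levels below are those of restimulated cells. In the labels' account the days in culture sum to less than the day names, so d9 and d5 are used only as names. No library of cells kept in 25 mM glucose was analysed here. The labels do not say that replicates came from separate mice or cultures, and each p-value therefore covers no more than the scatter among the libraries at hand, part of which may be technical.

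As background, a dividing T cell loads the MCM2-7 helicase onto origins in G1, when the origin recognition complex, Cdc6 and Cdt1 act together. Cyclin E with Cdk2 and the kinase Dbf4-Cdc7 then turn loaded helicases into moving forks with Cdc45 and the GINS complex. Genes of this machinery are classic targets of E2F transcription factors, which the retinoblastoma protein holds in check until cyclin-dependent kinases (CDKs) phosphorylate it. Activated CD8 T cells are among the fastest dividing cells of the adult body, and replication transcripts are abundant in them while they divide.

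Library depth was 22966098 to 24659226 counts at d9 and 16588023 to 17971480 counts at d5, so depth and day move together, as does the mitochondrial share of counts (0.35 to 0.53% at d9 and 0.78 to 1.12% at d5). The 8 CD8 T cell markers were all detected, at a summed 3363 to 4070 CPM at d9 and 3208 to 3762 CPM at d5. CPM is the count relative to library depth, scaled by TMM factors, and compares 1 gene between libraries. Markers of other cells were lower, and some moved with the day. The 5 NK cell markers summed to 58.7 to 88.0 CPM at d9 and 11.4 to 16.03 CPM at d5, while Ncr1 stayed under 1 CPM in every library and Klra8 was at 0 at d9. The 6 dendritic cell markers summed to 68.9 to 101 CPM at d9 and 20.2 to 34.3 CPM at d5, with Siglech at 0 and Flt3 and Xcr1 under 1 CPM. The 6 B cell markers summed to 78.6 to 119 CPM at d9 and 141 to 208 CPM at d5, with Ms4a1, Cd79a and Pax5 under 1 CPM. The 4 stromal markers summed to 29.3 to 52.9 CPM at d9 and 13.96 to 31.9 CPM at d5, with Pdgfra at 0 and Col1a1 and Col1a2 under 1 CPM. The 4 CD4 T cell markers summed to 136 to 169 CPM at d9 and 117 to 162 CPM at d5, and the 6 monocyte and macrophage markers to 6.14 to 10.3 CPM at d9 and 4.68 to 12.4 CPM at d5. Of the 6 erythroid markers none was detected at d9, and they summed to at most 0.224 CPM at d5. What these shifts contribute to the results below was not tested.

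Replication and S phase transcripts were lower after the long restriction, in both acetate states. Together the 49 genes held 0.162 to 0.238% of all counts in the 6 d9 libraries and 0.386 to 0.45% in the 4 d5 libraries. With acetate, 43 of 49 genes fell and 0 rose in d9 against d5 (edgeR quasi-likelihood test, Benjamini-Hochberg adjusted p under 0.05), where 41.6% of all genes tested changed and 23.1% fell. Without acetate, 42 fell and 0 rose, where 37.1% of all genes changed and 21.2% fell. The median log2 fold change of the 49 genes was -1.06 with acetate and -1.12 without it, and that of all genes was -0.01 and -0.01. These are bulk samples, in which fewer cells in S phase and less of these RNAs per cell cannot be told apart. The d9 cells had both a longer time in 1 mM glucose and a longer time since activation than the d5 cells. The design cannot tell these apart either.

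The day comparisons rest on different libraries, but they share the filter, the scaling and the estimate of the spread. Depth and the mitochondrial share also move with the day in both. 40 genes fell in both, 3 only passed with acetate (Mcm2, Rpa2 and Chaf1b), 2 only passed without it (Pole and Msh6), and 4 passed in neither (Cdt1, Tk1, Ung and E2f1). Passing in a single acetate state does not show a difference between the states. The difference itself was tested, and 0 of 49 genes passed (lowest adjusted p among them 0.700). In each acetate state 45 genes had all d9 libraries below all d5 libraries, where 33.4% of all genes did. In 43 genes every d9 library was below every d5 library whatever the acetate, where 20.6% of all genes met that. 23 genes fell by more than 2-fold in both comparisons and 6 by more than 4-fold in both, where 10.5% and 2.71% of all genes were lower by as much. When single libraries were left out in turn, 11 genes lost their call in at least 1 case with acetate and 11 without it. A d5 group then holds 1 sample, whose spread is taken from the other groups. The genes whose losses are not given with their values are, with acetate, Mcm5, Mcm7, Brca2 and Chaf1b without replicate 1 of the d5 group with acetate, and, without acetate, Gins2, Mcm5 and Dut without replicate 1 and Orc1, Mcm4, Pold1 and Msh6 without replicate 2 of the d5 group without acetate, and Pole without either.

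**Figure D1:**
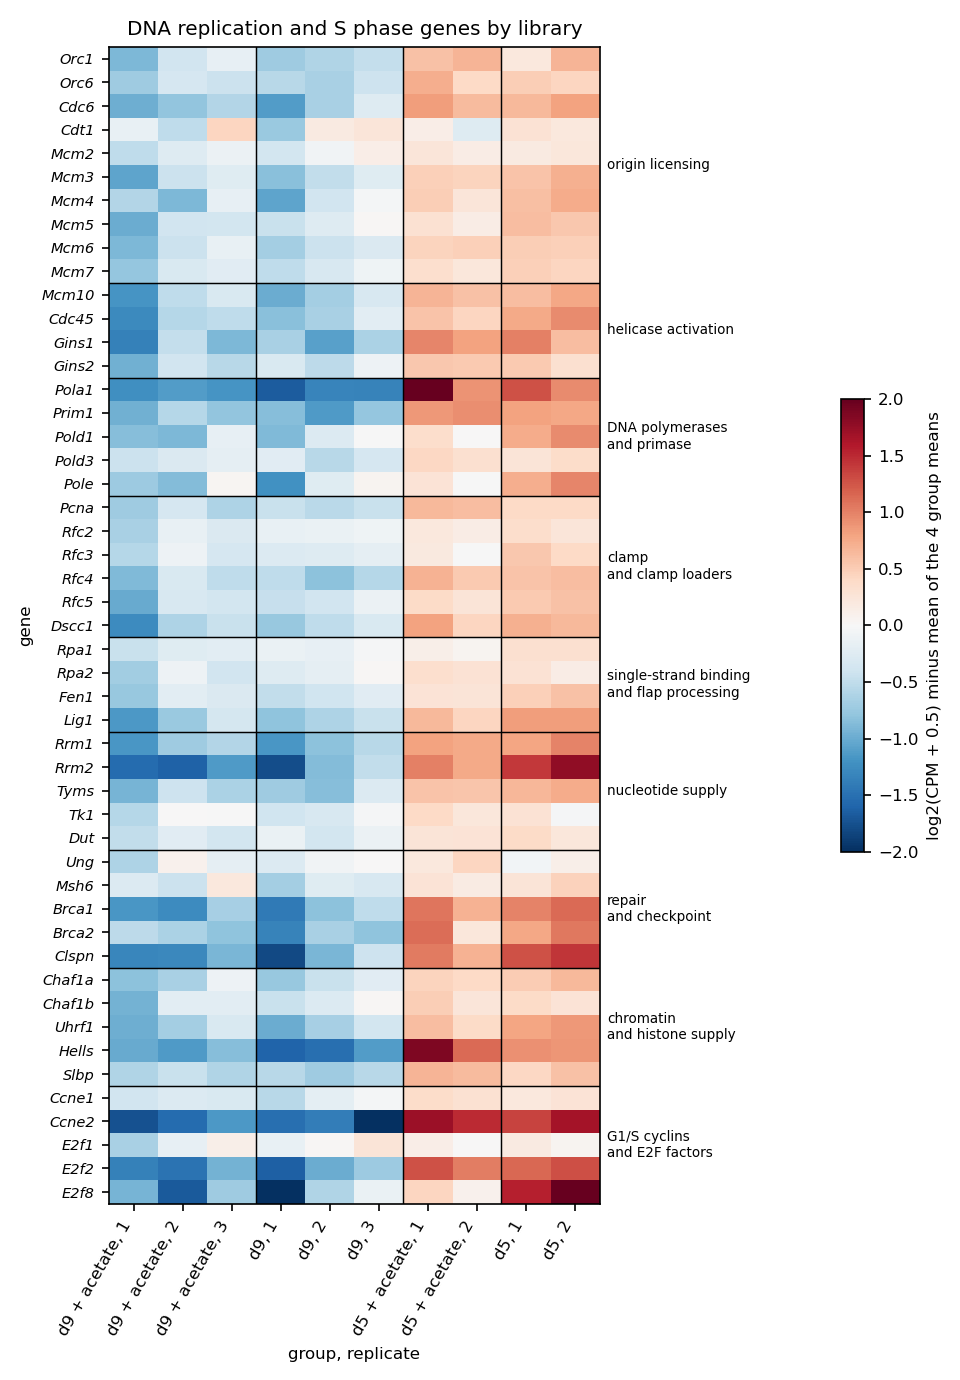
Each row is 1 of the 49 genes, ordered by role, and each column 1 library; colour is log2(CPM + 0.5) minus the mean of the 4 group means, and ends at 2 in either direction. Most rows are blue in the 6 d9 libraries at the left and red in the 4 d5 libraries at the right. Cdt1, Ung and E2f1 are among the rows in which d9 and d5 libraries overlap.

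**Figure D2:**
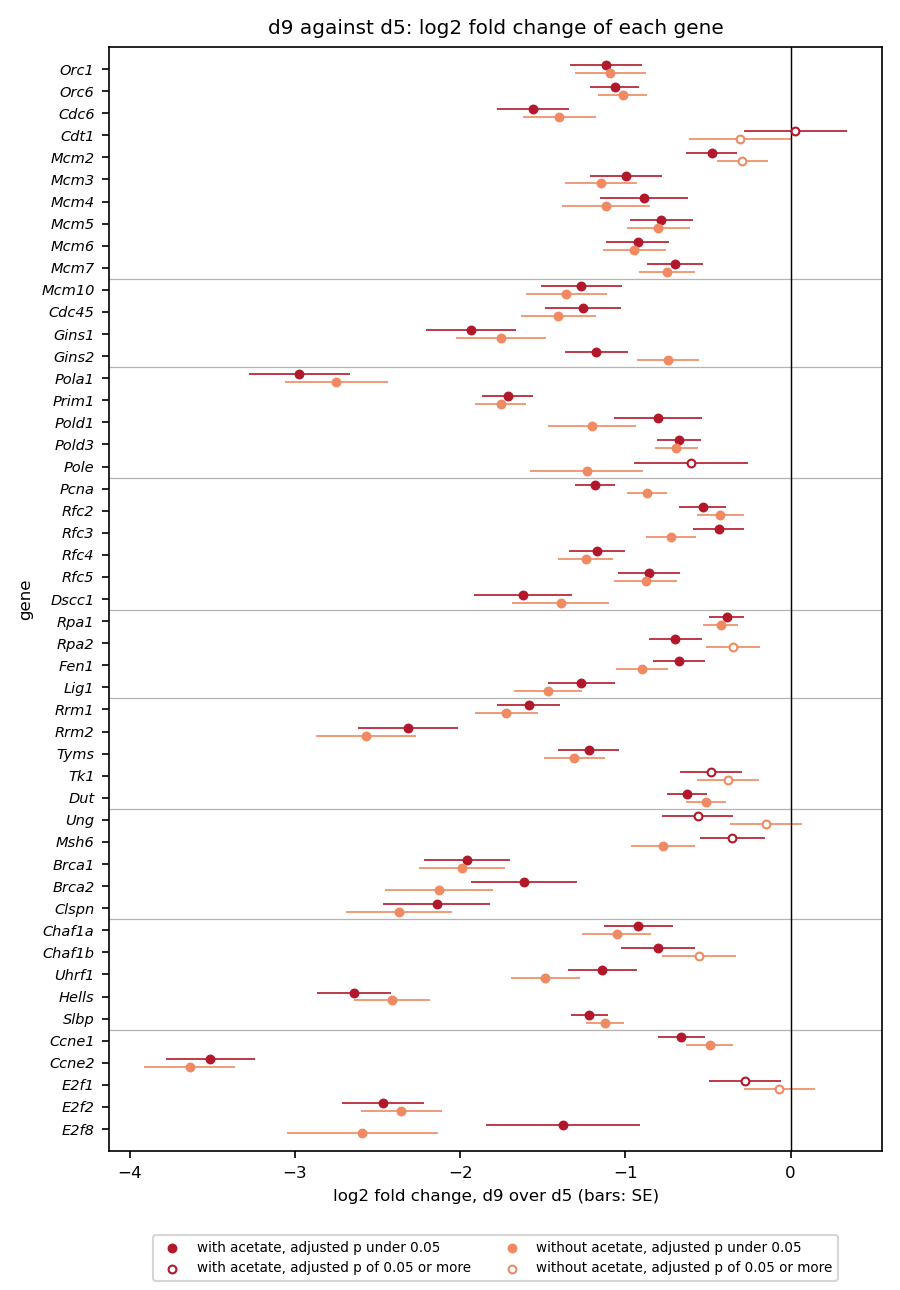
Log2 fold change of d9 over d5 for each gene, with acetate (dark red, upper point of each pair) and without it (orange, lower point); bars are SE, and filled points passed an adjusted p of 0.05. The points run from -3.64 (Ccne2, without acetate) to 0.03 (Cdt1, with acetate), and the pair of points of a gene lie close together for most genes.

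By the summed level of the 49 genes, the libraries of a d9 group lay further apart than those of a d5 group. A d9 group has 3 libraries and a d5 group has 2. Over all genes tested, the closest pair within any group was replicates 2 and 3 of the d9 group without acetate. The summed level of the 49 genes was 1613, 2061 and 2248 CPM at d9 with acetate, 1826, 2092 and 2455 CPM at d9 without it, 3984 and 3644 CPM at d5 with acetate, and 4172 and 4361 CPM at d5 without it. Replicate 1 of the d9 group with acetate was the lowest of all 10 libraries for 29 genes and replicate 1 of the d9 group without acetate for 15. Ribosomal protein genes, a large class of transcripts, took 11.58, 15.67 and 11.65% of counts at d9 with acetate and 15.98, 12.33 and 13.12% at d9 without it. The libraries lowest in S phase genes thus had the lowest ribosomal share in one d9 group and the highest in the other. Leaving out replicate 1 of the d9 group without acetate together with replicate 2 of the d9 group with acetate, which stand apart in the data as a whole, gave 45 genes lower with acetate and 42 without it.

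Most origin licensing genes fell at d9. Of the 10 genes, 9 fell with acetate and 8 without it. Cdc6, the ATPase that recruits the helicase to the origin, had 9.15, 10.5 and 12.2 CPM in the d9 libraries with acetate, 8.33, 11.7 and 15.4 CPM in the d9 libraries without it, 33.5 and 29.1 CPM in the d5 libraries with acetate and 29.4 and 32.8 CPM in the d5 libraries without it. All 6 d9 libraries were below all 4 d5 libraries, and the log2 fold change was -1.56 ± 0.22 with acetate (edgeR adjusted p = 3.70e-04) and -1.40 ± 0.22 without it (7.56e-04). Cdt1, its partner in loading the helicase, had 46.5, 36.3 and 69.9 CPM at d9 with acetate, 30.7, 58.7 and 61.2 CPM at d9 without it, 56.7 and 43.2 CPM at d5 with acetate and 63.8 and 60.3 CPM at d5 without it. Here the groups overlapped in both comparisons, the d9 libraries spread over a wider range than the d5 libraries, and the log2 fold change was 0.03 ± 0.31 with acetate (edgeR adjusted p = 0.950) and -0.31 ± 0.31 without it (0.469). Orc1 and Orc6, subunits of the origin recognition complex, fell by 2.17- and 2.09-fold with acetate and by 2.13- and 2.02-fold without it.

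The 6 subunits of the MCM2-7 helicase, which work in one ring, did not have equal log2 fold changes. Mcm2 had 99.6, 119 and 131 CPM in the d9 libraries with acetate, 110, 135 and 156 CPM in the d9 libraries without it, 167 and 157 CPM in the d5 libraries with acetate and 161 and 166 CPM in the d5 libraries without it. Every d9 library was below every d5 library, but by little, and the log2 fold change was -0.48 ± 0.16 with acetate (edgeR adjusted p = 0.0304) and -0.29 ± 0.16 without it (0.165). The call with acetate was lost on leaving out replicate 1 or 2 of the d9 group with acetate or any 1 of the 4 d5 libraries, with values from -0.51 to -0.38. Mcm5 was the subunit with the highest level per length, at a mean of 39.0 FPKM at d9 with acetate, 49.1 FPKM at d9 without it, 67 FPKM at d5 with acetate and 85.4 FPKM at d5 without it. FPKM is CPM per kilobase of exon, the scale used here to set one gene's level beside another's. In CPM, Mcm5 had 115, 175 and 177 CPM at d9 with acetate, 168, 190 and 231 CPM at d9 without it, 283 and 252 CPM at d5 with acetate and 350 and 333 CPM at d5 without it. It fell at d9, with a log2 fold change of -0.78 ± 0.19 with acetate (edgeR adjusted p = 0.00764) and -0.80 ± 0.19 without it (0.00744). Mcm3, Mcm4, Mcm6 and Mcm7 fell in both comparisons as well, with log2 fold changes between -0.9958 and -0.70 with acetate and between -1.15 and -0.75 without it. The call of Mcm4 with acetate was lost without replicate 1 or 2 of the d9 group with acetate and without either d5 library with acetate, at adjusted p (edgeR) between 0.0539 and 0.140.

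All 4 helicase activation genes fell in both comparisons. Cdc45, which joins the MCM ring in the active helicase, had 27.1, 44.3 and 46.0 CPM in the d9 libraries with acetate, 36.9, 41.8 and 56.7 CPM in the d9 libraries without it, 97.7 and 89.3 CPM in the d5 libraries with acetate and 111 and 128 CPM in the d5 libraries without it. The d9 libraries lay well below the d5 libraries, and the log2 fold change was -1.26 ± 0.23 with acetate (edgeR adjusted p = 0.00163) and -1.41 ± 0.23 without it (9.13e-04). Mcm10, which helps start the fork, had log2 fold changes of -1.27 with acetate and -1.36 without it. Gins1 and Gins2 encode subunits of the same 4-part GINS complex. Gins1 had 1.90, 3.89 and 2.77 CPM at d9 with acetate, 3.40, 2.37 and 3.44 CPM at d9 without it, 11.6 and 10.2 CPM at d5 with acetate and 11.8 and 8.88 CPM at d5 without it, and a log2 fold change of -1.94 ± 0.27 with acetate (edgeR adjusted p = 3.68e-04) and -1.75 ± 0.27 without it (7.20e-04). Gins2 had 8.56, 13.1 and 11.6 CPM at d9 with acetate, 13.8, 11.8 and 15.97 CPM at d9 without it, 25.2 and 24.8 CPM at d5 with acetate and 24.9 and 21.5 CPM at d5 without it, and a log2 fold change of -1.18 ± 0.19 with acetate (edgeR adjusted p = 7.84e-04) and -0.74 ± 0.19 without it (0.0109). Groups of d9 and d5 did not overlap for either gene. Most of the exonic bases of Gins2 (67.3%) are shared with Gse1 on the opposite strand, so its counts are uncertain as long as the strand setting of the counting is unknown.

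Polymerase and primase genes fell in 4 of 5 with acetate and 5 of 5 without it, and held the second largest fall of the list. Pola1, the catalytic subunit of the polymerase alpha-primase that starts each new strand, had 3.20, 3.48 and 3.33 CPM in the d9 libraries with acetate, 2.24, 2.96 and 2.92 CPM in the d9 libraries without it, 36.9 and 15.6 CPM in the d5 libraries with acetate and 20.4 and 16.1 CPM in the d5 libraries without it. The d9 libraries were all under 4 CPM and the d5 libraries all above 15, with replicate 1 of the d5 group with acetate far above the other 3. The log2 fold change was -2.97 ± 0.31 with acetate (edgeR adjusted p = 5.87e-05) and -2.75 ± 0.31 without it (9.81e-05), a 7.86-fold fall with acetate and a 6.72-fold fall without it. Prim1, the primase subunit of the same enzyme, fell by 3.28- and 3.38-fold. The catalytic subunits of the main copying enzymes had smaller values. Pold1, the catalytic subunit of polymerase delta, had 30.7, 29.8 and 50.01 CPM at d9 with acetate, 30.2, 46.2 and 55.5 CPM at d9 without it, 71.9 and 56.6 CPM at d5 with acetate and 94.2 and 108 CPM at d5 without it, with log2 fold changes of -0.80 ± 0.27 with acetate (edgeR adjusted p = 0.0344) and -1.20 ± 0.27 without it (0.00535). With acetate its call was lost without replicate 1 or 2 of the d9 group with acetate and without any 1 of the 4 d5 libraries, at -0.96 to -0.61. Pole, the catalytic subunit of polymerase epsilon, had 31.9, 29.1 and 54.7 CPM at d9 with acetate, 22.7, 45.04 and 55.6 CPM at d9 without it, 64.5 and 52.7 CPM at d5 with acetate and 88.6 and 105 CPM at d5 without it. Its d9 and d5 libraries overlapped with acetate and not without it, and the log2 fold change was -0.60 ± 0.35 with acetate (edgeR adjusted p = 0.183) and -1.23 ± 0.34 without it (0.0172). Pold3, an accessory subunit of polymerase delta, fell by 1.596- and 1.61-fold.

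Clamp and clamp loader genes fell in both comparisons, 6 of 6 each time. Pcna, the sliding clamp that tethers polymerases to DNA, was the member with the highest level per length over all libraries (71.7 FPKM). It had 106, 137 and 112 CPM in the d9 libraries with acetate, 127, 119 and 127 CPM in the d9 libraries without it, 272 and 266 CPM in the d5 libraries with acetate and 227 and 227 CPM in the d5 libraries without it. Replicates of a group lay close together and d9 was clearly below d5, with a log2 fold change of -1.18 ± 0.12 with acetate (edgeR adjusted p = 5.40e-05) and -0.87 ± 0.12 without it (3.51e-04). A pseudogene copy, Pcna-ps2, also has counts, so reads may be split between them. Rfc3, a subunit of the replication factor C clamp loader, had 15.8, 22.1 and 18.5 CPM at d9 with acetate, 19.6, 19.7 and 20.8 CPM at d9 without it, 27.3 and 23.6 CPM at d5 with acetate and 34.7 and 31.4 CPM at d5 without it. Its d9 libraries were below its d5 libraries, and the log2 fold change was -0.44 ± 0.15 with acetate (edgeR adjusted p = 0.0406) and -0.72 ± 0.15 without it (0.00385). That call with acetate was lost, at -0.53 to -0.32, when 1 library was left out, for 8 of the 10 libraries (all but replicate 2 of the d9 group with acetate and replicate 1 of the d9 group without it), and with transcript length and GC trends removed the value was 0.03. Rfc2, Rfc4 and Rfc5, of the same complex, had log2 fold changes from -1.17 to -0.53 with acetate and from -1.24 to -0.43 without it. The call of Rfc2 was lost with acetate without either d5 library with acetate, and without acetate on leaving out any 1 of 7 libraries (the 3 d9 libraries without acetate and the 4 d5 libraries), at -0.48 to -0.36. Dscc1, part of an alternative loader that acts in sister chromatid cohesion, had 0.927, 1.74 and 2.00 CPM at d9 with acetate, 1.52, 1.90 and 2.26 CPM at d9 without it, 5.49 and 4.10 CPM at d5 with acetate and 5.13 and 4.85 CPM at d5 without it, with log2 fold changes of -1.62 ± 0.30 with acetate (edgeR adjusted p = 0.00174) and -1.39 ± 0.29 without it (0.00409). With transcript length and GC trends removed, its call without acetate was lost, at -0.82 (edgeR adjusted p = 0.0644). The call of Rfc3 without acetate was lost in the same setting, at -0.41 (edgeR adjusted p = 0.0519).

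Single-strand binding and flap processing genes fell in 4 of 4 cases with acetate and 3 of 4 without it. Rpa1, the large subunit of the protein that coats single-stranded DNA, had 85.7, 97.9 and 100 CPM in the d9 libraries with acetate, 107, 104 and 114 CPM in the d9 libraries without it, 126 and 121 CPM in the d5 libraries with acetate and 145 and 145 CPM in the d5 libraries without it. The groups did not overlap, although the log2 fold change was small at -0.39 ± 0.11 with acetate (edgeR adjusted p = 0.0144) and -0.42 ± 0.11 without it (0.0103). Without replicate 1 or 2 of the d5 group with acetate the call with acetate was lost, at -0.35 and -0.41, and likewise the call without acetate on leaving out either d5 library without acetate. Rpa2, its partner subunit, had 39.9, 60.1 and 49.3 CPM at d9 with acetate, 54.3, 57.4 and 65.9 CPM at d9 without it, 82.1 and 79.4 CPM at d5 with acetate and 78.9 and 72.0 CPM at d5 without it. Again all d9 libraries were below all d5 libraries, with a log2 fold change of -0.70 ± 0.16 with acetate (edgeR adjusted p = 0.00614) and -0.35 ± 0.16 without it (0.113). Fen1, the nuclease that trims Okazaki fragments, and Lig1, the ligase that seals them, had log2 fold changes of -0.68 and -1.27 with acetate and -0.90 and -1.47 without it.

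Of the 5 nucleotide supply genes, 4 fell in each comparison. Rrm2, the small subunit of ribonucleotide reductase that makes deoxynucleotides and is itself made in S phase, had 26.4, 25.1 and 35.1 CPM in the d9 libraries with acetate, 22.3, 42.4 and 55.1 CPM in the d9 libraries without it, 156 and 131 CPM in the d5 libraries with acetate and 208 and 267 CPM in the d5 libraries without it. No d9 library reached 60 CPM and no d5 library was under 130, and the log2 fold change was -2.31 ± 0.30 with acetate (edgeR adjusted p = 2.59e-04) and -2.57 ± 0.30 without it (1.45e-04). Rrm1, the large subunit, fell by 3.00-fold with acetate and 3.29-fold without it, where Rrm2 fell by 4.97- and 5.94-fold. Tyms, thymidylate synthase, had 22.6, 32.8 and 28.1 CPM at d9 with acetate, 26.6, 24.2 and 36.2 CPM at d9 without it, 65.4 and 64.5 CPM at d5 with acetate and 70.0 and 73.4 CPM at d5 without it. These groups did not overlap, with a log2 fold change of -1.22 ± 0.19 with acetate (edgeR adjusted p = 5.64e-04) and -1.31 ± 0.19 without it (4.18e-04). Tk1, thymidine kinase, which salvages the same nucleotide, had 59.8, 89.9 and 88.5 CPM at d9 with acetate, 67.4, 70.9 and 87.2 CPM at d9 without it, 118 and 104 CPM at d5 with acetate and 108 and 87.1 CPM at d5 without it. Its lowest d5 library lay at the level of its highest d9 libraries, and the log2 fold change was -0.48 ± 0.19 with acetate (edgeR adjusted p = 0.0605) and -0.38 ± 0.19 without it (0.139). Dut, which keeps uracil out of DNA, fell by 1.55- and 1.43-fold.

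Repair and checkpoint genes fell in 3 of 5 with acetate and 4 of 5 without it, and ranged from the larger falls of the list to values that did not pass. Clspn, claspin, the adaptor of the replication checkpoint, had 4.64, 4.67 and 6.22 CPM in the d9 libraries with acetate, 3.14, 6.27 and 9.05 CPM in the d9 libraries without it, 25.6 and 20.1 CPM in the d5 libraries with acetate and 30.1 and 33.6 CPM in the d5 libraries without it. All d9 libraries were under 10 CPM and all d5 libraries above 20, and the log2 fold change was -2.14 ± 0.32 with acetate (edgeR adjusted p = 5.44e-04) and -2.37 ± 0.32 without it (3.04e-04). Brca2, which acts in the recombination repair of broken forks, was the gene with the lowest level per length (0.246 FPKM over all libraries), with 2.02, 1.83 and 1.58 CPM at d9 with acetate, 0.941, 1.82 and 1.57 CPM at d9 without it, 7.40 and 3.73 CPM at d5 with acetate and 5.68 and 7.01 CPM at d5 without it. Its groups did not overlap, and the log2 fold change was -1.61 ± 0.32 with acetate (edgeR adjusted p = 0.00271) and -2.13 ± 0.32 without it (6.36e-04). Brca1, of the same repair pathway, fell by 3.89- and 3.97-fold. Msh6, a mismatch recognition subunit, had 34.1, 30.5 and 47.8 CPM at d9 with acetate, 25.5, 34.7 and 32.8 CPM at d9 without it, 49.7 and 45.9 CPM at d5 with acetate and 49.4 and 56.5 CPM at d5 without it, and a log2 fold change of -0.35 ± 0.19 with acetate (edgeR adjusted p = 0.169) and -0.77 ± 0.19 without it (0.0103). Its libraries overlapped with acetate and not without it. Ung, uracil DNA glycosylase, had 4.85, 8.24 and 6.78 CPM at d9 with acetate, 6.31, 7.28 and 7.74 CPM at d9 without it, 9.02 and 10.5 CPM at d5 with acetate and 7.39 and 8.41 CPM at d5 without it. Its d9 and d5 libraries overlapped without acetate and not with it, and neither comparison passed, at log2 -0.56 ± 0.21 with acetate (edgeR adjusted p = 0.0555) and -0.15 ± 0.22 without it (0.621).

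Of the 5 chromatin and histone supply genes, 5 fell with acetate and 4 without it. Hells, a chromatin remodeller needed for DNA methylation, had 6.03, 5.496 and 6.78 CPM in the d9 libraries with acetate, 3.85, 4.15 and 5.57 CPM in the d9 libraries without it, 47.8 and 28.5 CPM in the d5 libraries with acetate and 24.4 and 23.8 CPM in the d5 libraries without it. Here d9 libraries were all under 7 CPM and d5 libraries all above 23, with a log2 fold change of -2.64 ± 0.22 with acetate (edgeR adjusted p = 2.00e-05) and -2.41 ± 0.23 without it (3.48e-05). Uhrf1, which brings the maintenance DNA methyltransferase to copied DNA, had 50.3, 62.3 and 81.0 CPM at d9 with acetate, 49.8, 62.6 and 77.5 CPM at d9 without it, 154 and 130 CPM at d5 with acetate and 172 and 182 CPM at d5 without it. It fell in both comparisons, at log2 -1.14 ± 0.21 with acetate (edgeR adjusted p = 0.00172) and -1.48 ± 0.21 without it (3.99e-04). Slbp, which binds the stem-loop of histone mRNAs, had 30.3, 33.6 and 30.1 CPM at d9 with acetate, 31.0, 28.0 and 31.3 CPM at d9 without it, 74.2 and 71.5 CPM at d5 with acetate and 61.8 and 69.2 CPM at d5 without it. These 10 values formed a tight d9 set and a tight d5 set, and the log2 fold change was -1.22 ± 0.11 with acetate (edgeR adjusted p = 3.43e-05) and -1.12 ± 0.11 without it (5.28e-05). Chaf1a and Chaf1b, subunits of the chromatin assembly factor CAF-1, had log2 fold changes of -0.92 and -0.80 with acetate and -1.05 and -0.55 without it, the last of which did not pass. About as many exonic bases of Chaf1a (52.5%) are shared with Ubxn6 on the opposite strand as are not.

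Among the G1/S cyclins and E2F factors, relatives of one family had unlike values, and 4 of 5 genes fell in each comparison. Ccne2, cyclin E2, had the largest fall of all 49 genes, with 0.885, 1.10 and 1.58 CPM in the d9 libraries with acetate, 1.12, 1.27 and 0.653 CPM in the d9 libraries without it, 14.7 and 12.6 CPM in the d5 libraries with acetate and 11.3 and 14.1 CPM in the d5 libraries without it. All d9 libraries were under 2 CPM and all d5 libraries above 11. The fall was 11.4-fold with acetate and 12.4-fold without it, a log2 fold change of -3.51 ± 0.27 with acetate (edgeR adjusted p = 1.12e-05) and -3.64 ± 0.28 without it (9.15e-06). Ccne1, cyclin E1, had 47.4, 51.6 and 50.3 CPM at d9 with acetate, 42.2, 54.5 and 60.8 CPM at d9 without it, 80.8 and 76.6 CPM at d5 with acetate and 72.4 and 75.2 CPM at d5 without it. It too was below d5 in every d9 library, but its log2 fold change was -0.66 ± 0.14 with acetate (edgeR adjusted p = 0.00445) and -0.49 ± 0.14 without it (0.0216), and the call without acetate was lost on leaving out either d5 library of that group, at -0.52 and -0.46. Per length, Ccne2 averaged 0.340 FPKM at d9 with acetate, 0.290 FPKM at d9 without it, 3.90 FPKM at d5 with acetate and 3.63 FPKM at d5 without it, where Ccne1 averaged 18.7 FPKM at d9 with acetate, 19.7 FPKM at d9 without it, 29.6 FPKM at d5 with acetate and 27.7 FPKM at d5 without it.

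E2f2, an activating E2F, had 7.04, 6.41 and 9.42 CPM in the d9 libraries with acetate, 5.64, 9.14 and 11.1 CPM in the d9 libraries without it, 46.0 and 38.3 CPM in the d5 libraries with acetate and 42.1 and 46.3 CPM in the d5 libraries without it. Its d9 and d5 libraries were far apart, with a log2 fold change of -2.46 ± 0.25 with acetate (edgeR adjusted p = 5.18e-05) and -2.36 ± 0.25 without it (6.12e-05). E2f1, the best known activating E2F, had 8.81, 12.5 and 15.3 CPM at d9 with acetate, 12.6, 14.3 and 16.9 CPM at d9 without it, 15.4 and 14.2 CPM at d5 with acetate and 16 and 14.5 CPM at d5 without it. Groups overlapped and the comparisons did not pass, at log2 -0.28 ± 0.22 with acetate (edgeR adjusted p = 0.325) and -0.07 ± 0.22 without it (0.833). E2f8, an atypical E2F that represses E2F targets, had 7.21, 4.08 and 8.44 CPM at d9 with acetate, 3.00, 9.10 and 12.9 CPM at d9 without it, 19.2 and 15.04 CPM at d5 with acetate and 42.6 and 58.0 CPM at d5 without it. The d5 libraries without acetate stood above the rest, and the log2 fold change was -1.38 ± 0.47 with acetate (edgeR adjusted p = 0.0371) and -2.59 ± 0.46 without it (0.00167). Its call with acetate was lost without replicate 1 or 2 of the d9 group with acetate, without replicate 2 of the d9 group without it, and without either d5 library with acetate, with values from -1.54 to -1.09.

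**Figure D3:**
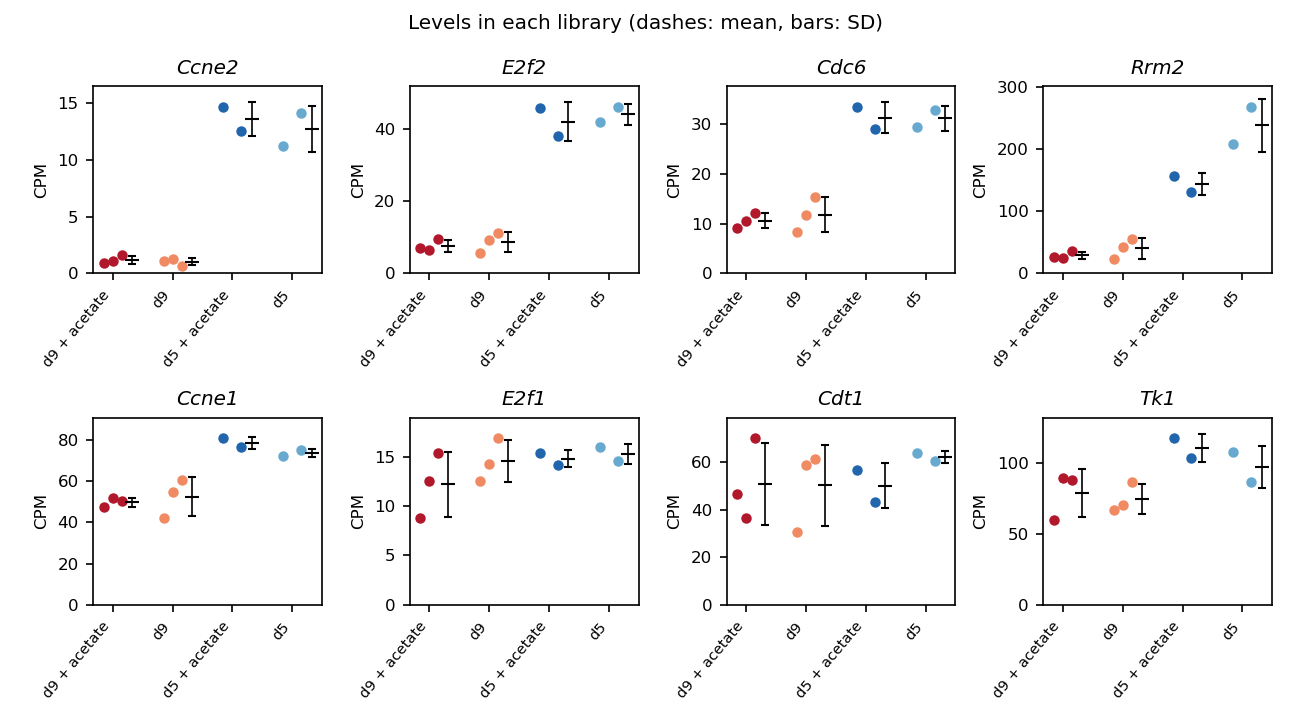
CPM of 8 genes in each library (points) with the group mean and SD (dash and bar), groups in the order d9 with acetate, d9, d5 with acetate, d5, and related genes above each other. Ccne2, E2f2, Cdc6 and Rrm2 in the upper row separate d9 from d5 by several-fold, while Ccne1, E2f1, Cdt1 and Tk1 in the lower row lie closer together, with d9 and d5 overlapping in all but Ccne1.

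Genes with related roles outside the list were followed as 6 further lists. Other replication fork and origin genes fell in 19 of 32 with acetate and 21 of 32 without it, and 1 gene rose. Dbf4, the activator of the Cdc7 kinase, had the smallest p, with a log2 fold change of -1.98 with acetate and -1.89 without it. Tipin, of the fork protection complex, had -1.76 with acetate and -1.5994 without it. The gene that rose was Pold4, the smallest subunit of polymerase delta, with 81.4, 99.9 and 71.9 CPM at d9 with acetate, 117, 93.4 and 89.8 CPM at d9 without it, 43.0 and 51.3 CPM at d5 with acetate and 54.1 and 51.8 CPM at d5 without it. Its d9 libraries were all above its d5 libraries, at log2 0.84 ± 0.17 with acetate (edgeR adjusted p = 0.00308) and 0.92 ± 0.17 without it (0.00199). Other S phase repair and chromatin genes fell in 16 of 19 in each comparison, with 0 higher. Usp1, a deubiquitinase that acts on Pcna, had log2 fold changes of -1.39 with acetate and -1.52 without it. Other nucleotide metabolism genes fell in 8 of 22 with acetate and 7 of 22 without it, with 0 higher and a median log2 fold change of -0.11 and -0.10. Of this list 36.4% with acetate and 31.8% without it changed, all of them lower. Of all genes, 41.6% and 37.1% changed and 23.1% and 21.2% fell. The share that changed in this list was thus somewhat below the background, and the share that fell was above it. No test was made of either difference. Dtymk, thymidylate kinase, had -0.90 with acetate and -0.9991 without it.

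Other G1/S regulators moved in both directions. With acetate 6 of 20 fell and 7 rose, and without it 8 fell and 3 rose. So did all genes, with 3044 lower and 2436 higher with acetate and 2799 lower and 2096 higher without it. Ccnd2, cyclin D2, rose, with 801, 685 and 724 CPM in the d9 libraries with acetate, 524, 605 and 515 CPM in the d9 libraries without it, 408 and 517 CPM in the d5 libraries with acetate and 294 and 289 CPM in the d5 libraries without it. No d9 library was as low as the highest d5 library of its own acetate state, and the log2 fold change was 0.67 ± 0.14 with acetate (edgeR adjusted p = 0.00317) and 0.91 ± 0.14 without it (6.32e-04). Ccnd1 and the transcription factor gene Mycn, both low in CPM, rose too, with log2 fold changes of 1.6034 and 2.14 with acetate and 1.57 and 1.86 without it. Among those that fell were Tfdp2, an E2F dimer partner (-2.12 with acetate and -1.77 without it), and Rbl1, the pocket protein p107 (-1.6043 with acetate and -1.94 without it). Ccna2, cyclin A2, and Cdk2, the kinase of cyclins E and A, fell as well, with log2 fold changes of -2.61 and -1.38 with acetate and -2.71 and -1.71 without it.

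CDK inhibitors, which block the kinases that start S phase, moved in both directions, with 3 of 6 tested genes higher in each comparison, 1 lower with acetate and 2 lower without it. Cdkn1a, the p53 target p21, was abundant, with 1458, 1540 and 1772 CPM in the d9 libraries with acetate, 1367, 1347 and 1151 CPM in the d9 libraries without it, 554 and 583 CPM in the d5 libraries with acetate and 508 and 589 CPM in the d5 libraries without it. All d9 libraries were above all d5 libraries, at log2 1.48 ± 0.14 with acetate (edgeR adjusted p = 3.83e-05) and 1.23 ± 0.14 without it (9.85e-05). Cdkn2a, whose counts pool p16 and p19Arf, had 99.1, 134 and 114 CPM at d9 with acetate, 112, 94.3 and 100 CPM at d9 without it, 21.6 and 11.8 CPM at d5 with acetate and 20.96 and 17.0 CPM at d5 without it, at log2 2.79 ± 0.25 with acetate (edgeR adjusted p = 2.70e-05) and 2.43 ± 0.24 without it (4.94e-05). Its neighbour Cdkn2b, p15, had 63.2, 59.3 and 53.9 CPM at d9 with acetate, 66.9, 67.3 and 72.8 CPM at d9 without it, 13.96 and 6.15 CPM at d5 with acetate and 11.5 and 5.78 CPM at d5 without it, at log2 2.55 ± 0.34 with acetate (edgeR adjusted p = 2.41e-04) and 2.99 ± 0.34 without it (1.08e-04). For these 3 genes d9 exceeded d5 in every library. Cdkn2c, p18, went the other way, with 8.39, 10.2 and 9.64 CPM at d9 with acetate, 12.1, 13.0 and 16.1 CPM at d9 without it, 28.2 and 26.9 CPM at d5 with acetate and 44.3 and 61.9 CPM at d5 without it. It fell, at log2 -1.55 ± 0.18 with acetate (edgeR adjusted p = 1.05e-04) and -1.95 ± 0.17 without it (2.32e-05). Cdkn2d, p19, fell only past the test without acetate, with log2 fold changes of -0.23 ± 0.24 with acetate (edgeR adjusted p = 0.464) and -1.21 ± 0.24 without it (0.00291), and the difference between acetate states did not pass (adjusted p = 0.519). Cdkn1b, p27, had -0.03 ± 0.25 with acetate (edgeR adjusted p = 0.922) and -0.37 ± 0.25 without it (0.264), and Cdkn1c did not pass the filter on low counts.

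G2/M genes, which act after S phase, fell in 20 of 20 in both comparisons, with a median log2 fold change of -2.21 with acetate and -2.44 without it. Nusap1, a spindle protein, had log2 fold changes of -4.04 with acetate and -3.60 without it. No test was made of whether their falls exceed those of the S phase genes.

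**Figure D4:**
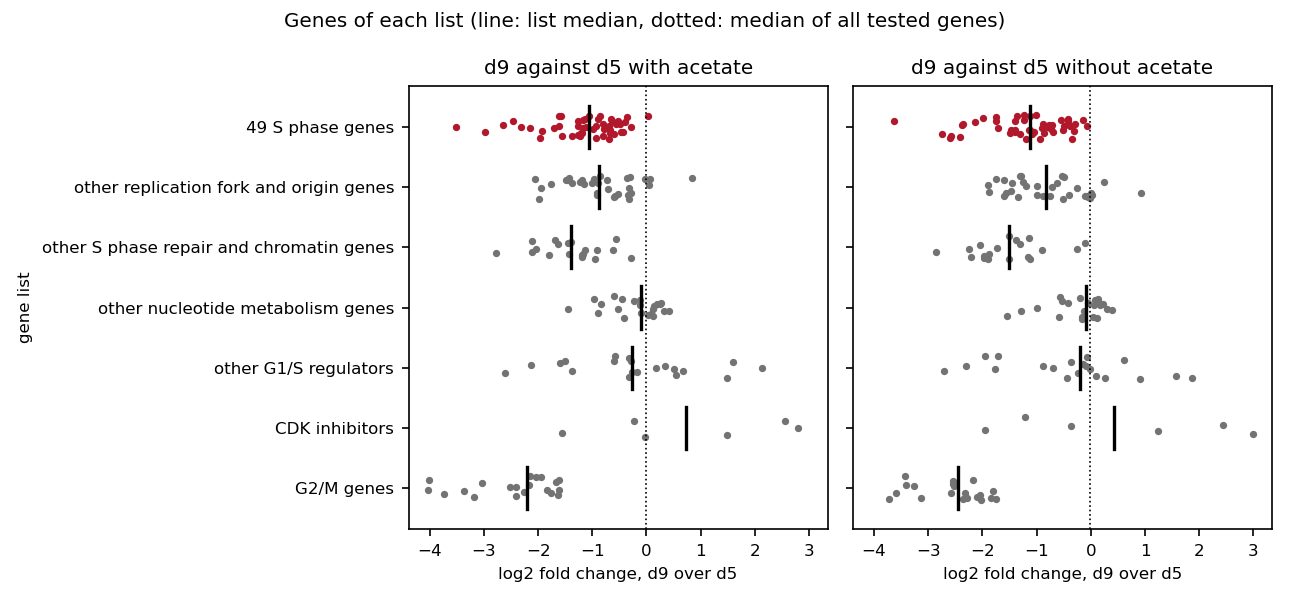
Log2 fold change of d9 over d5 for each tested gene of the 49 S phase genes (red) and of 6 related lists (grey), with acetate in the left panel and without it in the right; thick lines are list medians and the dotted line the median of all tested genes. The S phase genes lie almost wholly left of the dotted line, with medians of -1.06 and -1.12, G2/M genes lie further left, and 3 of 6 CDK inhibitors lie beyond 1 on the right.

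Promoters of the list were read for the letters of E2F binding sites, because E2F factors are known to bind such promoters. A list of replication genes is rich in known E2F targets, so an excess of these letters follows from the choice of genes. Whether the letters bear on the fall at d9 was not tested. Windows from 250 bases before to 50 bases after the annotated start, 300 bases each, were taken from RefSeq on build GRCm38.p6 and matched to 42 of 49 genes in 48 windows. Searched on both strands were TTTCCCGC, TTTGGCGC, TTTCGCGC and TTTGCCGC, which can overlap one another. At least 1 of them stood in 37.5% of these 48 windows, where 2.26% of all 32851 windows of the same length held one. By gene, that was 18 of 42 (42.86%), where 2.6% of 27025 genes had one. The CCAAT box, which may overlap them, stood in 58.33% of the 48 windows and 37.41% of all, and TTTGAA, the letters of the CHR element of G2/M promoters, in 10.42% and 17.89%. A match is a run of letters and does not show binding.

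Shown here are the windows of 5 genes with E2F letters, from different roles and each the most strongly fallen of its role among those with a match, in lower case with the E2F letters, on either strand, in capitals. They lie at chrX:93632106-93632405 (minus strand, Pola1), chr19:38930740-38931039 (plus strand, Hells), chr4:126556730-126557029 (plus strand, Clspn), chr4:136172024-136172323 (plus strand, E2f2) and chr7:13278576-13278875 (plus strand, Lig1), and are printed 5′ to 3′ on the strand of the gene. E2f2 has a second annotated start and Lig1 has 2 others, which are not printed.
Pola1: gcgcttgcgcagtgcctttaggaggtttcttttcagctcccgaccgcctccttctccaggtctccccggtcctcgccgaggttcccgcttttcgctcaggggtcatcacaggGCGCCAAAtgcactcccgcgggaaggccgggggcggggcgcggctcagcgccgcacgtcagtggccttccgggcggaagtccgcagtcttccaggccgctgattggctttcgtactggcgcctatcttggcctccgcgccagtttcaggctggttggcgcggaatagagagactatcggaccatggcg
Hells: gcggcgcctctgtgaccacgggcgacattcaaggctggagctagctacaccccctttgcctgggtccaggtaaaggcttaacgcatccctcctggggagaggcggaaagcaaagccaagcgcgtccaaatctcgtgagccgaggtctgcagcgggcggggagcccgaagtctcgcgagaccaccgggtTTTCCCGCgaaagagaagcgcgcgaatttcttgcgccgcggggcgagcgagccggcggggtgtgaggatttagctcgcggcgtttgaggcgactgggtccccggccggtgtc
Clspn: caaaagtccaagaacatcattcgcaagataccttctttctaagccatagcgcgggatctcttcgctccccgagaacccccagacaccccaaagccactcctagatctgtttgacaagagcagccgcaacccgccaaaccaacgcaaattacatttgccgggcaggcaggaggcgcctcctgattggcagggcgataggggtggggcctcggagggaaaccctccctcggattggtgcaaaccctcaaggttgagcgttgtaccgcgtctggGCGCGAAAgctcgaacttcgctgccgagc
E2f2: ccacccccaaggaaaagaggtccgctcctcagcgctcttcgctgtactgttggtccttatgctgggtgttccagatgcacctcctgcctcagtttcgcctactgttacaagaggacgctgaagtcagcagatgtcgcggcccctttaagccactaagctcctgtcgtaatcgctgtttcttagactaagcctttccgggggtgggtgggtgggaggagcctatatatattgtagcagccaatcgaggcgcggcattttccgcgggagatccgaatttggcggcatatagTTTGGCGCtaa
Lig1: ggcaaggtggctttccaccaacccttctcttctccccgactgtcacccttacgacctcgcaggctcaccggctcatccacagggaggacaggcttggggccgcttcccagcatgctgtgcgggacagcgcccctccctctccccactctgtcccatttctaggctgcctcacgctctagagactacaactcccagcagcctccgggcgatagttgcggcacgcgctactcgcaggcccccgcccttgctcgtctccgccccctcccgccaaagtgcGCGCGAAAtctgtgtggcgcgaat

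In all 5 the marked run is 1 match. Among the 18 genes with E2F letters, 16 fell with acetate and 17 without it, with a median log2 fold change of -1.06 (from -2.97 to 0.03) and -1.18 (from -2.75 to -0.31). Among the 24 with a window and no such letters, 21 and 18 fell, with a median of -0.99 (from -2.31 to -0.28) and -0.96 (from -2.59 to -0.07). The ranges of both sets overlap and no test of the difference was made. Cdt1, which did not pass, holds a match, and E2f8 and Rrm2, which fell, hold none in these windows.

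Sequence makeup moved with the change to a degree. Across the 49 genes Spearman's rho of the log2 fold change with transcript GC content was 0.49 with acetate and 0.429 without it. Across 13163 genes of all kinds it was 0.409 and 0.347. With transcript length, rho was -0.233 with acetate and -0.339 without it for the 49 genes, and 0.073 and -0.061 for all genes. These are across genes, which are not independent replicates. With length and GC trends removed from each library, 46 of the 49 genes fell with acetate and 44 without it, with a median of -0.9775 and -1.0016. Single genes moved more than the median, as given above for Dscc1 and Rfc3.

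Acetate itself changed none of the 49 genes past the threshold. At d9, 0 of 49 passed (edgeR adjusted p), where 0.0303% of all genes did, and 0 had an unadjusted p under 0.05, where 15.4% of all genes did. The DESeq2 Wald test and limma-voom also called 0 of 49. The median log2 fold change of acetate over no acetate was -0.09 for the 49 genes and 0.01 for all genes. Rrm2 had the lowest value, with 26.4, 25.1 and 35.1 CPM in the d9 libraries with acetate, against 22.3, 42.4 and 55.1 CPM in those without, and log2 -0.47 ± 0.27 (edgeR adjusted p = 0.464). Hells had the highest, with 6.03, 5.496 and 6.78 CPM in the d9 libraries with acetate, against 3.85, 4.15 and 5.57 CPM in those without, and log2 0.43 ± 0.22 (edgeR adjusted p = 0.377). Both sets of libraries overlapped. Mcm5, E2f8, Gins2 and Dscc1 followed at the low end, between -0.34 and -0.29, and Brca2, Pola1, Msh6 and Ccne2 at the high end, between 0.32 and 0.23. In Pola1 alone all acetate libraries were above all others of d9, and in Rpa1 alone all were below, where 9.9% and 8.79% of all genes did so.

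At d5, 0 of 49 genes passed, where 1.52% of all genes did. At an unadjusted p under 0.05, 1 gene was higher and 3 were lower, 4 of 49 in all, where 19.8% of all genes met that level. DESeq2 and limma-voom called 0 of 49, and a fit of the 4 d5 libraries alone called 4, all lower (Rrm2, E2f8, Pole and Pold1). E2f8 had the lowest value, with 19.2 and 15.04 CPM in the d5 libraries with acetate, against 42.6 and 58.0 CPM in those without. The pairs did not overlap, and the log2 fold change was -1.55 ± 0.50 (edgeR adjusted p = 0.144). Rrm2, with 156 and 131 CPM in the d5 libraries with acetate, against 208 and 267 CPM in those without, had log2 -0.73 ± 0.33 (edgeR adjusted p = 0.256). Pole had 64.5 and 52.7 CPM in the d5 libraries with acetate, against 88.6 and 105 CPM in those without and Pold1 71.9 and 56.6 CPM in the d5 libraries with acetate, against 94.2 and 108 CPM in those without. They were lower in both acetate libraries, at log2 -0.72 ± 0.38 (edgeR adjusted p = 0.317) for Pole and -0.66 ± 0.30 (edgeR adjusted p = 0.252) for Pold1. Clspn, at -0.48, and Rfc3, at -0.38, were next.

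At the other end at d5, Hells had 47.8 and 28.5 CPM in the d5 libraries with acetate, against 24.4 and 23.8 CPM in those without, with log2 0.66 ± 0.24 (edgeR adjusted p = 0.175). Pola1 had 36.9 and 15.6 CPM in the d5 libraries with acetate, against 20.4 and 16.1 CPM in those without, with log2 0.52 ± 0.32 (edgeR adjusted p = 0.378). The high Pola1 and Hells values came mostly from replicate 1 of the acetate group, and for Pola1 the pairs overlapped. Ung, Pcna and Tk1 followed, at 0.31, 0.24 and 0.18. In 20 of 49 genes both acetate libraries were below both others, a larger share than the 29.2% of all genes that did so. In 7 of 49 both were above, a smaller share than the 29.8% of all genes. With 2 libraries against 2 such separation is common, and the difference in shares was not tested.

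**Figure D5:**
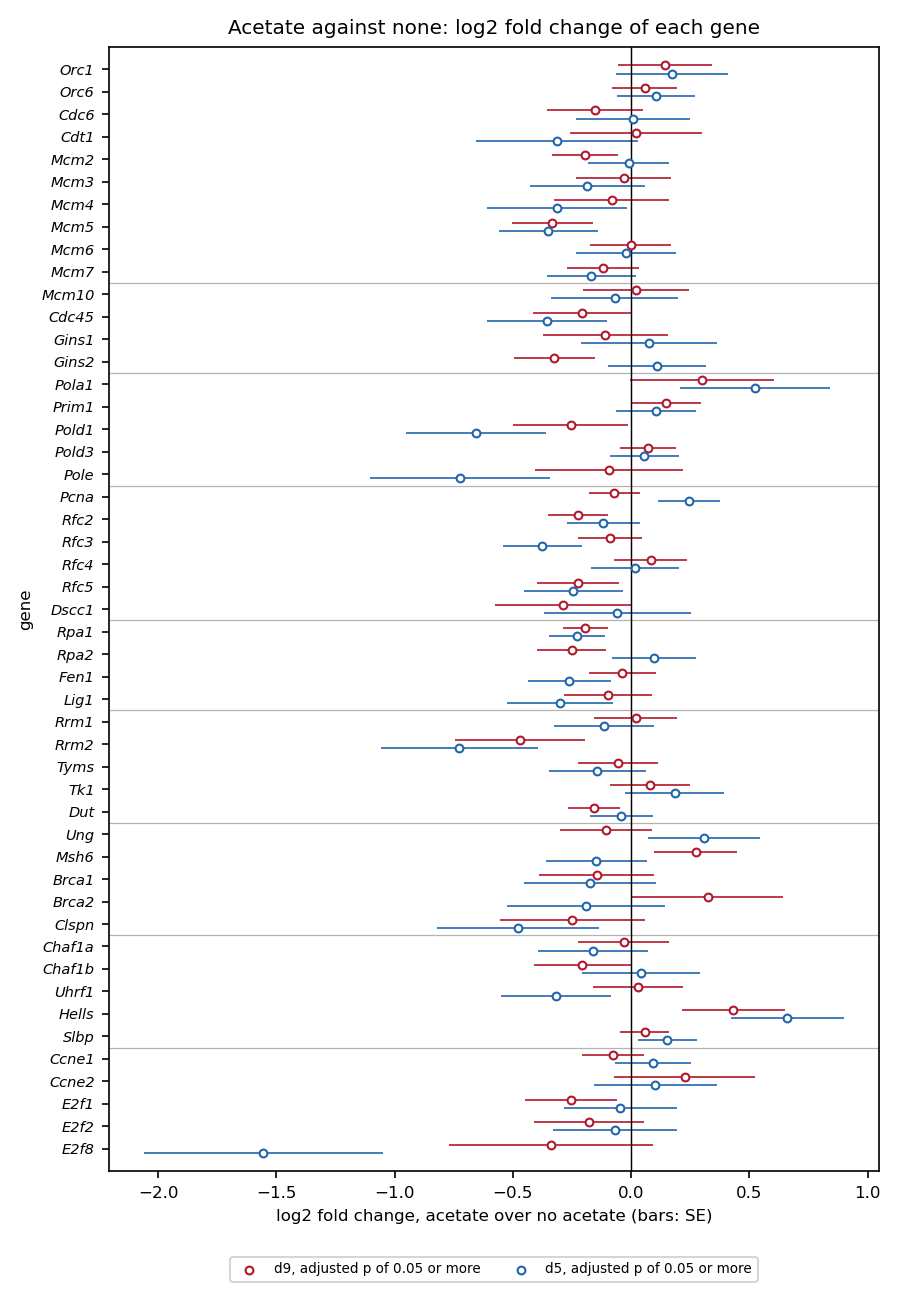
Log2 fold change of acetate over no acetate for each gene at d9 (red, upper point) and d5 (blue, lower point), with SE bars; all points are open because none passed an adjusted p of 0.05. At d9 the points lie between -0.47 and 0.43, and at d5 between -1.55 (E2f8) and 0.66 (Hells).

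The acetate effects at d9 and at d5 were set against each other in 1 further test, which is also the test of whether the d9 fall differs with acetate. 0 of 49 genes passed, and 0 of all 13182 genes did. At an unadjusted p under 0.05 there were 0 of the 49 and 7.7% of all genes, and the DESeq2 Wald test called 102 genes, none of them among the 49. E2f8 had the largest difference, log2 1.22 ± 0.66 (edgeR adjusted p = 0.700), followed by Pole (0.63), Brca2 (0.51), Msh6 (0.42) and Pold1 (0.40). Gins2 (-0.43), Ung (-0.41), Rpa2 (-0.35) and Pcna (-0.32) were at the other end.

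In the related lists at d5, where 1.52% of all genes passed, 2 of 32 other fork and origin genes rose with acetate and 1 of 6 tested CDK inhibitors fell. The inhibitor was Cdkn2c, at log2 -0.95 ± 0.19 (edgeR adjusted p = 0.0411), and no gene of the related lists passed at d9. These 3 calls at d5 were lost with replicate number as a block in the fit. They were also lost on leaving out replicate 1 or 3 of the d9 group with acetate, or replicate 2 or 3 of the d9 group without it. The calls of all 3 genes were lost on leaving out any 1 of the 4 d5 libraries, and no gene at all passed without either d5 library with acetate or without replicate 2 of the d5 group without it. Of the 49 genes, 13 share exonic bases with an expressed gene on the opposite strand, among them Ccne2 with Ints8 over 17.4% of its exonic length, Rfc2 with Lat2 over 15.1% and Rfc4 with Eif4a2 over 12.7%, and their counts carry the same uncertainty as those of Gins2 and Chaf1a. Some genes of the related lists do so too, among them Orc2 with Nif3l1 over 1150 bases, Ccnd1 with LTO1 over 1100, and Orc4 with Acvr2a over 446 and Mbd5 over 136.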

How the data were processed

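Counts per gene were deposited for each of 10 libraries (TruSeq stranded, polyadenylated RNA). Per the submitters' processing notes, the tools were deepTools, STAR, featureCounts and DESeq2 on build GRCm38, and the notes give no strand setting or annotation release. Gene IDs were matched to GENCODE M21, which held 53274 of 53465. Counts were tested with edgeR 4.0.16 in R 4.3.3 (filterByExpr, TMM factors, robust quasi-likelihood fit with a mean per group and all 10 libraries), with Benjamini-Hochberg adjustment over 13182 genes and a threshold of 0.05. The SE of a log2 fold change is its size divided by the square root of F. The fit left 6 residual degrees of freedom and a common biological coefficient of variation of 0.161. The script was tested on simulated data. FPKM used summed exon lengths. Replicate numbers were not taken as pairs. No pair of replicates agreed within sampling noise (chi-square per degree of freedom at least 5.633).

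Members and lists were chosen with earlier results of these data known. Genes given in full were 14 named ones and, per comparison, 5 members at either end of the ranked log2 fold changes; related genes were named by smallest p per list, and a few of them are not reported here. limma 3.58.1 and DESeq2 1.42.0 served as alternatives, and promoter windows came from RefSeq (GRCm38.p6). Total counts limit the precision of the lowest genes most.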

Additional observations from a re-analysis of the deposited data

How the results depend on the processing

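The fall at d9 was recomputed under 21 settings. Members called lower ranged from 32 to 46 with acetate and from 34 to 44 without it, and the lowest counts came without a d5 library (32 and 36 with acetate, 34 and 35 without it). Under every setting 32 of 43 genes stayed called with acetate and 29 of 42 without it. The call of Mcm2 with acetate held in 15 of 21 settings, that of Rpa1 in 17, that of Pold1 in 14, that of Mcm4 in 15, that of E2f8 in 14 and that of Rfc3 in 8. Without acetate that of Rfc2 held in 11. Rfc3 with acetate came to 0.0313 with length and GC trends removed, and the cause was not tested.

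For acetate at d5, members called numbered 4 with only the compared libraries (Rrm2, E2f8, Pole and Pold1, all lower), 1 with the ribosomal protein share as a covariate (Hells, higher), 2 without d9 replicate 1 and d9 replicate 2 with acetate together (Rrm2 and E2f8, lower), and 0 to 1 on leaving out single libraries (E2f8 without d9 replicate 1). The cause was not tested. The median of acetate at d9 changed sign to 0.0319 without replicate 1 with acetate and to 0.0830 without d9 replicate 3 (range -0.2109 to 0.0830 on leaving out libraries), and the median difference of acetate effects came to -0.0158 with the covariate, -0.0888 without those d9 libraries and -0.0761 to 0.1955 on leaving out single libraries.

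Over all genes, calls for acetate at d9 were 4 in the fit as reported, 197 with no filter, 335 with DESeq2, 959 with the ribosomal covariate, 62 with length and GC trends removed, 213 without the pair of d9 libraries and 0 to 18 on leaving out 1 library. For acetate at d5 they were 201, and in the same order 578, 786, 1077, 451, 2162 and 0 to 498, with 1701 from only the compared libraries and 62 with the replicate block. For the difference of acetate effects they were 0, and in the same order 99, 102, 35, 22, 255 and 0 to 1. In d9 against d5 they were 5480 with acetate and 4895 without it, and 3108 and 2803 at the lowest, each without 1 d5 library of that comparison. With that block 45 members fell with acetate, 43 without it and 0 changed with acetate. Same-numbered libraries had deviations correlated at -0.24, -0.567 and 0.43 within d9 and 0.023 within d5. Across days the same-numbered pairs had 0.252 and 0.303 with acetate and 0.227 and 0.193 without it, all positive, but each comparison has only 2 such pairs and the deviations of a d5 pair mirror each other. Scaling by library size alone moved the median of all genes by -0.11 in both day comparisons, with member medians of -1.17 with acetate and -1.22 without it.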

Other observations

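The origin recognition complex was covered in part by the 49 genes (Orc1 and Orc6) and in part by the related list of fork and origin genes, and its subunits differed in their acetate values at d5. Orc4 had 49.3 and 44.0 CPM in the d5 libraries with acetate, against 27.9 and 23.9 CPM in those without, and rose at log2 0.85 ± 0.17 (edgeR adjusted p = 0.0385). Orc2 had 100 and 94.2 CPM in the d5 libraries with acetate, against 62.2 and 61.7 CPM in those without, and passed by a small margin at log2 0.65 ± 0.14. Counts of Orc2 and Orc4 carry the strand uncertainty given above. Both calls were lost on leaving out any 1 of the 4 d5 libraries, at log2 0.74 to 0.96 for Orc4 and 0.60 to 0.69 for Orc2. They were also lost on leaving out replicate 1 or 3 of the d9 group with acetate or replicate 2 or 3 of the d9 group without it, and with the replicate block. The Orc2 call was lost with limma-voom (adjusted p = 0.0513) and with scaling by library size alone (edgeR adjusted p = 0.0586). The Orc4 call was lost with length and GC trends removed (edgeR adjusted p = 0.0547). The subunits Orc3 and Orc5, named after their values were seen, had 0.61 and 0.35, and Orc1 and Orc6 0.17 and 0.10, none of which passed. At d9 Orc4 had 19.6, 21.3 and 20.3 CPM in the d9 libraries with acetate, against 15.5, 11.7 and 11.9 CPM in those without, with all acetate libraries above the others, at log2 0.65 ± 0.14 (edgeR adjusted p = 0.102). All 6 subunits fell in d9 against d5 with acetate, from -1.19 (Orc4) to -0.72 (Orc2). Without acetate 5 fell, from -1.09 (Orc1) to -0.40 (Orc2), with Orc4 at -0.99, and Orc3 did not pass at -0.62 ± 0.23 (edgeR adjusted p = 0.0547).

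E2f7, the other atypical E2F and a relative of E2f8, had 7.96 and 6.68 CPM in the d5 libraries with acetate, against 14.7 and 21.03 CPM in those without. Its log2 fold change with acetate at d5 was -1.29 ± 0.41 (edgeR adjusted p = 0.138), beside -1.55 for E2f8, and neither passed. In d9 against d5 E2f7 fell at log2 -1.51 ± 0.40 with acetate (edgeR adjusted p = 0.0123) and -2.30 ± 0.38 without it (9.86e-04).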
